A study of Mus musculus with 147 samples.

Results

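Bclaf1 and 9 genes of RNA splicing were followed in single renin-lineage cells of the mouse kidney: Thrap3, Srsf1, Srsf2, Srsf3, Srsf5, Srsf6, Srsf7, Srsf11 and Son. The genes were taken by symbol, and all 10 were found among the 35438 genes of the count tables. The question was whether the genes of SR proteins moved together with Bclaf1 between genotypes and between cells. The cells came from the kidney cortex of adult C57BL/6 mice of both sexes in which yellow fluorescent protein (YFP) is driven by regulatory sequence of the renin gene Ren1c, and were sorted for YFP. WT renin cells came from Ren1c+/+; Ren1c-YFP mice and Renin-null cells from Ren1c-/-; Ren1c-YFP mice, which carry the deletion in every cell. The reporter marks cells that switch on the renin promoter, so that a Renin-null cell is defined by YFP and not by renin itself. Per the methods of the study, mice with a Ren1c null allele were given saline under the skin in the first days of life so that they survived, and no such treatment is described for the WT mice. Each cell was held in a well of its own on a Fluidigm C1 chip and its polyadenylated RNA was copied with SMART-Seq v4, which carries no molecular identifiers and no strand. There were 51 WT wells and 96 Renin-null wells, the latter in 2 sequencing libraries of 48 wells, YFP1 and YFP2. The labels tie no well to a mouse or a capture. Each genotype was therefore 1 sample, no test between genotypes was possible, and effects of genotype, capture and library cannot be told apart.

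SR proteins carry domains rich in serine and arginine, bind exonic sequences in pre-mRNA and recruit the spliceosome. They are phosphorylated by kinases of the CLK and SRPK families, and many control their own mRNA through exons that expose it to nonsense-mediated decay. Bclaf1 (BCL2-associated transcription factor) and its paralog Thrap3 are arginine- and serine-rich nuclear proteins of RNA processing, and Son is a scaffold of nuclear speckles, where splicing factors are stored. In the kidney, renin cells sit in the wall of the afferent arteriole at the glomerulus, share a lineage with arteriolar smooth muscle and make renin under control of cyclic AMP.

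The promoters of Bclaf1, Thrap3 and Srsf6 are shown because their ratios between genotypes were the largest in size among the 10 genes. Each sequence is the 120 bases before the outermost annotated start site, from RefSeq (GRCm38.p6), in the direction of the gene, with the GC box (GGGCGG on either strand) in capitals.
Bclaf1, chr10:20312349-20312468, plus strand: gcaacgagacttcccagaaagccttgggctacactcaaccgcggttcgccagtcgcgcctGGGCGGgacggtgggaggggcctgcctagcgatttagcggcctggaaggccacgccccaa
Thrap3, chr4:126202761-126202880, minus strand: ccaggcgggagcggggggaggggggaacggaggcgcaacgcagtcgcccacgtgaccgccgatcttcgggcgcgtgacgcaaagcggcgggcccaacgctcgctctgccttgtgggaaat
Srsf6, chr2:162931388-162931507, plus strand: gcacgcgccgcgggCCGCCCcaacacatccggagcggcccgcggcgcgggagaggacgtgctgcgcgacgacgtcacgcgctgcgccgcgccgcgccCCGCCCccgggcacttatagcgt
Over windows from 250 bases before to 50 after a start site, which number 32851 in all, the GC box was found for 7 of the 10 genes (Bclaf1, Srsf1, Srsf2, Srsf5, Srsf6, Srsf7 and Srsf11) and in 35.7% of all windows. The CCAAT box (CCAAT, either strand) was found for Srsf1, Srsf2, Srsf3 and Son and in 37.4% of all windows, and TATAAA for Srsf2 and Srsf3 and in 13.6%. The ETS motif CCGGAAG was found for Srsf5, Srsf7 and Srsf11 and in 8.86% of all windows. The full cyclic AMP response element TGACGTCA was found for none of the 10 genes and in 1.79% of all windows. These matches are descriptions of letters in a window, and no 1 motif was shared by all 10 genes.

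Bclaf1 (ENSMUSG00000037608) spans chr10:20312469-20344613 on the plus strand of GRCm38 and Thrap3 (ENSMUSG00000043962) spans chr4:126164082-126202760 on the minus strand. Srsf6 (ENSMUSG00000016921) spans chr2:162931528-162937121 and Son (ENSMUSG00000022961) chr16:91647506-91679221, both on the plus strand. Counts are of whole genes, so exons and introns of these spans are not told apart. Because the chemistry does not mark strand, reads in exons that overlap on opposite strands can be given to either gene. Srsf2 shares 460 exonic bases with Mettl23 and 288 with Mfsd11, and Son shares 103 with Donson. The counts of Mettl23 were 6947 in WT and 19122 in Renin-null cells, and those of Donson 1063 and 1042, against 120416 and 403502 for Srsf2 and 41809 and 265262 for Son. The pseudogene Srsf3-ps, which could take reads of Srsf3, held 12 and 23 counts.

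Depth differed widely between wells. WT wells held 26401 to 17124854 counts (median 1525972), YFP1 wells had a median of 2474268 and YFP2 wells one of 4989996. The share of the 13 mitochondrially encoded genes had a median of 60.4% over WT wells, 12.9% over YFP1 wells and 12.4% over YFP2 wells. Wells with 100000 counts or more, 1000 genes or more and a mitochondrial share of 25% or less are called well-covered here, and numbered 15 in WT, 28 in YFP1 and 29 in YFP2. The total was 197904443 counts in WT, 181424477 in YFP1 and 217388328 in YFP2. Levels are given as counts per 1000000 counts of a well, or of all wells of a group summed (CPM), and differences as the log2 ratio of summed CPM, Renin-null over WT. The 95% intervals of ratios cover counting error only, which at these depths is far smaller than the spread between wells.

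Some wells went against their labels as separate cells. Among the Renin-null wells, 4 pairs were near-identical, with a Pearson r of at least 0.974 over genes, while the pair after them had 0.896. In 3 of these pairs a YFP1 well matched the YFP2 well at the same place in the column order, under different index labels. The other pair lay within YFP2. Together these wells held 15.1% of the Bclaf1 counts of Renin-null cells. Counting each pair once left 92 Renin-null wells and a Bclaf1 ratio of 2.94, against 2.96 with all wells. All 48 index pairs were used in each of the 3 libraries, and 2 wells carry discordant index labels.

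The labels were checked on renin and on marker genes. Ren1 stood at 96023 summed CPM in WT cells and at 54 counts in all Renin-null wells, with a count in 16 of 96 wells. Akr1b7, a second marker of renin cells, was found in both genotypes, at 4528 CPM in WT, 1700 in YFP1 and 2271 in YFP2, a log2 ratio of -1.17 that was below 0 in all 14 alternatives. The 7 markers of mural and smooth muscle cells summed to 22339 CPM in WT, 25015 in YFP1 and 26935 in YFP2, led by Rgs5 at 11102, 13418 and 14772 CPM. Among these, Acta2 had a log2 ratio of -0.02, Tagln 0.61, Cnn1 0.86 and Myh11 -0.58, and Pdgfrb was lower in Renin-null cells, at -2.59 (-2.69 in YFP1 and -2.52 in YFP2). The Acta2 ratio took both signs over the 14 alternatives, from -0.72 to 1.48, and was 0.73 as the mean over wells of CPM. The well medians of Acta2 were 143 CPM in WT, 796 in YFP1 and 1671 in YFP2. Markers of other kidney cell types mostly summed higher over Renin-null wells, except those of endothelium and collecting duct in YFP1. The 6 proximal tubule markers summed to 22.2 CPM in WT, 233 in YFP1 and 224 in YFP2, with Slc34a1 the most abundant and Slc5a2 at 0 in WT. All 6 were at least 2-fold higher in the sum over Renin-null cells, as were 52.4% of all genes, and 3 of the 6 in YFP1 alone, where Cubn was at -0.05, Slc13a3 at 0.90 and Slc5a2 at 0.54 over the floor of 3 counts set for WT. The 4 fibroblast markers summed to 7.04, 144 and 380 CPM, led by Col1a1 in WT and YFP2 and by Dcn in YFP1. The 6 endothelial markers summed to 36.8, 35.7 and 381 CPM, led by Emcn in WT and YFP2 and by Kdr in YFP1, with Cdh5 and Plvap at 0 in WT. The 4 markers of the loop and distal tubule summed to 0.515, 189 and 43.0 CPM, led by Slc12a1 in the sum over Renin-null cells, where 1 well held 95.03% of its counts. The 4 of the collecting duct summed to 10.1, 2.96 and 81.4 CPM, led by Hsd11b2 in WT, Aqp3 in YFP1 and Aqp2 in YFP2, and the 5 of macrophages to 0.985, 3.64 and 4.20 CPM, led by Ptprc. Several of these sums rest on few wells: 1 well held 98.7% of the WT and 69.6% of the Renin-null counts of Emcn, and 1 held 99.7% of the WT counts of Hsd11b2. With only the 72 Renin-null wells that held less than 1000 CPM of these markers of other cell types, the Bclaf1 ratio was 2.74, that of Son 1.86, that of Thrap3 -1.72 and that of Srsf6 -2.11.

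The SR genes did not follow Bclaf1 as a group. Bclaf1 was 7.78-fold and Son 3.15-fold higher in Renin-null cells, while Thrap3 was 4.11-fold and Srsf6 3.29-fold lower. The other 6 genes lay between a log2 ratio of -0.18 (Srsf3) and 0.75 (Srsf11). Thus 2 of 10 genes were at least 2-fold higher and 2 of 10 at least 2-fold lower, where 52.4% and 18.5% of all 18720 genes with a ratio passed the same folds (43.1% and 27.2% with the TMM factors of edgeR). Among the 1744 genes detected in 50% or more of the wells of each library, 23.7% and 12.4% did. Srsf1 and Srsf6 did not meet this limit of detection, and the other 8 genes did. The number at least 2-fold higher was 3 as the difference of mean log2(CPM + 1) (9.03% of all genes), 4 as the mean over wells of CPM (59.1% of all genes), 4 in wells thinned to 62000 counts (56.9%), 6 on SCTransform-corrected counts (64.1%) and 1 with TMM, and 1 gene, Bclaf1, lay 2-fold above the median of all genes (37.6% of all genes). The median over the 10 genes was 0.31, against 1.17 over all genes with a ratio, 0.75 over the 7783 genes of at least 10 CPM and a count in 20% of wells in the higher genotype, and 0.31 over the 1744 widely detected genes. Of the 10 genes, 8 lay below the median of all genes. As the difference of mean log2(CPM + 1), by contrast, the median was 0.67 over the 10 genes and 0.13 over all genes, so that on this scale the group lay above it. With TMM the median of all genes was 0.47 and that of the 10 genes -0.39, so the scaling sets on which side of 0 the middle of the group lies. Bclaf1, Son, Srsf2 and Srsf11 were above 0, and Srsf6 and Thrap3 below 0, in each of 14 other ways of combining, scaling or choosing wells, in which Srsf1, Srsf3, Srsf5 and Srsf7 took both signs. Bclaf1, Son and Srsf6 are on the study's own list of genes that separate these same cells, so their direction is not independent evidence.

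**Figure D1:**
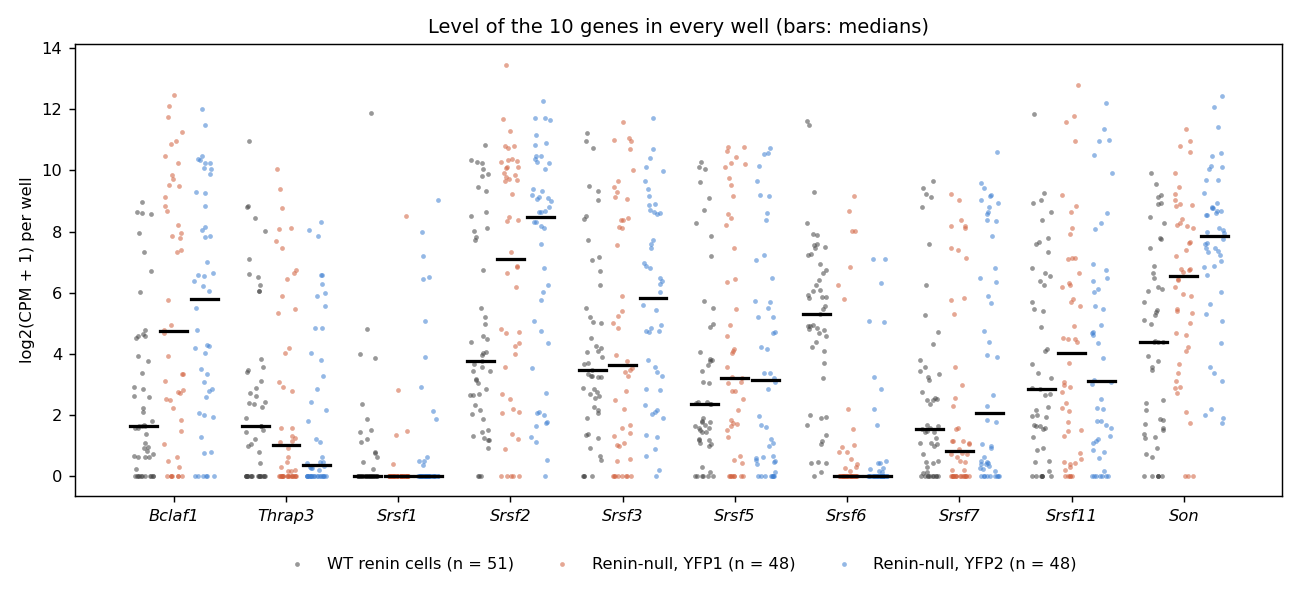
Level of each of the 10 genes in every well as log2(CPM + 1) on the y axis, with WT wells in grey (n = 51), YFP1 in orange and YFP2 in blue (n = 48 each) and black bars for medians. The wells of the 3 libraries overlap for every gene, many wells lie at 0, and Srsf6 has a median of 38.4 CPM in WT and of 0 in both Renin-null libraries.

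**Figure D2:**
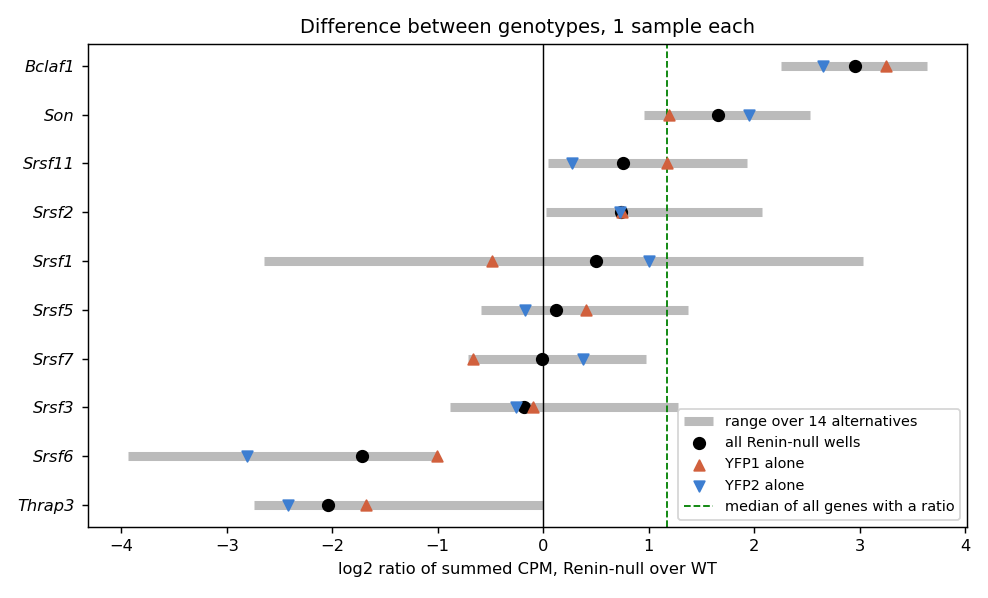
Log2 ratio of summed CPM, Renin-null over WT, for each gene (black), for YFP1 and YFP2 alone (triangles) and over 14 alternatives (grey bars), with a dashed line at the median of all genes (1.17). Bclaf1 (2.96) and Son (1.65) lie right of that line, and Srsf6 (-1.72) and Thrap3 (-2.04) lie left of 0.

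Bclaf1 was the gene of the group with the largest ratio. Its level ran from 0 to 494 CPM in WT wells (median 2.08), from 0 to 5694 in YFP1 (median 25.6) and from 0 to 4133 in YFP2 (median 54.8). The 3 libraries overlapped, and only Renin-null wells, of both libraries, lay above the highest WT well. A level of at least 100 CPM was reached in 7 of 51 WT wells (13.7%, exact Clopper-Pearson 95% interval 5.70% to 26.3%) and in 39 of 96 Renin-null wells (40.6%, 30.7% to 51.1%), and a level of 1000 CPM in 0 and 17 wells. Among well-covered wells, 5 of 15 in WT (33.3%, 11.8% to 61.6%) and 35 of 57 in Renin-null cells (61.4%, 47.6% to 74%) reached 100 CPM. These intervals cover the counting of wells within 1 sample, and no comparison of genotypes is read from them. Summed over wells, Bclaf1 stood at 109 CPM in WT, 1043 in YFP1 and 688 in YFP2. The log2 ratio was 2.96 (95% counting interval 2.94 to 2.98), or 3.25 for YFP1 and 2.66 for YFP2. Over the 14 alternatives it ranged from 2.26 to 3.64. In well-covered wells the median was 14.2 CPM in 15 WT wells and 281 in 57 Renin-null wells, with a ratio of 2.89. The highest well held 22.4% of the WT counts and 15.2% of the Renin-null counts, and the highest 3 wells 58.4% and 39.5%. The ratio was 3.03 without the highest well of each genotype. Bclaf1 lay at the 77.5th percentile of ratios among the 7783 expressed genes, so larger ratios were common in this comparison.

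Thrap3, the paralog of Bclaf1, went the other way in the sums, by an amount that depended on the scaling and the wells used. Its level ran from 0 to 2008 CPM in WT wells (median 2.08), from 0 to 1064 in YFP1 (median 1.02) and from 0 to 320.3 in YFP2 (median 0.287). At least 10 CPM was found in 14 of 51 WT wells (27.5%, 15.9% to 41.7%) and 28 of 96 Renin-null wells (29.2%, 20.3% to 39.3%). In well-covered wells the median was 65.9 CPM in 15 WT wells and 1.22 in 57 Renin-null wells, and 9 (60%, 32.3% to 83.7%) and 18 (31.6%, 19.9% to 45.2%) of these wells reached 10 CPM. The summed level was 205 CPM in WT, 64.01 in YFP1 and 38.3 in YFP2, which gave a log2 ratio of -2.04 (counting interval -2.06 to -2.01). A single WT well held 52.1% of the WT counts of Thrap3 and 3 wells held 75.1%. Without the highest well of each genotype the ratio was -1.35, as the mean over wells of CPM it was -0.66, and on SCTransform-corrected counts, which are scaled for depth and not for the mitochondrial share, it was -0.01. In well-covered wells it was -2.34, with TMM -2.74, without mitochondrial genes and Ren1 -2.38, and without the shallowest and most gene-rich wells -2.33. The ratio was thus below 0 in each of the 14 alternatives, but ran from near 0 to beyond its main value. In well-covered wells Thrap3 reached 100 CPM in 6 of 15 WT wells (40.0%, 16.3% to 67.7%) and 10 of 57 Renin-null wells (17.5%, 8.75% to 29.9%).

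Son, the speckle scaffold, was higher in Renin-null cells in the sums and well medians of both libraries. It ran from 0 to 963 CPM in WT wells (median 19.9), from 0 to 2623 in YFP1 (median 93) and from 2.33 to 5555 in YFP2 (median 230.3). The libraries overlapped, the lowest wells were at 0 in WT and YFP1, and every YFP2 well held a count. At least 100 CPM was found in 12 of 51 WT wells (23.5%, 12.8% to 37.5%) and 59 of 96 Renin-null wells (61.5%, 51.0% to 71.2%). The summed level was 211 CPM in WT, 484 in YFP1 and 817 in YFP2, with a log2 ratio of 1.65 (counting interval 1.64 to 1.67). This was 1.20 for YFP1 and 1.95 for YFP2. Over the 14 alternatives the ratio of Son ranged from 0.95 with TMM, below 2-fold, to 2.53 as the difference of mean log2(CPM + 1). Among well-covered wells the share at 100 CPM was 8 of 15 (53.3%, 26.6% to 78.7%) in WT and 41 of 57 (71.9%, 58.5% to 83.03%) in Renin-null cells, with medians of 117 and 274 CPM, while the lowest of these wells was at 14.1 CPM in WT and 2.74 in Renin-null cells. Relative to the median of all genes Son was higher by 0.48 on the log2 scale.

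Srsf2 and Srsf3, which bind exonic enhancers and regulate their own splicing, had many counts in both genotypes and differed by less than 2-fold in their sums. Srsf2 ran from 0 to 1839 CPM in WT wells (median 12.5), from 0 to 11328 in YFP1 (median 138) and from 0 to 4915 in YFP2 (median 358). Its summed level was 608 CPM in WT, 1019 in YFP1 and 1006 in YFP2, and its log2 ratio was 0.73 (counting interval 0.72 to 0.74). The medians differed far more than the sums, and the log2 ratio was 1.72 as the mean over wells of CPM, 2.08 on SCTransform-corrected counts and 0.03 with TMM. In well-covered wells they were close, at 699 CPM in 15 WT wells and 834 in 57 Renin-null wells, and the ratio was 0.47. Across WT wells, Srsf2 had a Spearman rho of -0.78 with the mitochondrial share of the well. Srsf3 ran from 0 to 2417 CPM in WT wells (median 10.1), from 0 to 3097 in YFP1 (median 11.5) and from 0 to 3378 in YFP2 (median 55.9). Its summed levels of 513, 482 and 429 CPM gave a log2 ratio of -0.18 (counting interval -0.19 to -0.17), with a median of 340.2 CPM in well-covered WT wells and 188 in well-covered Renin-null wells. The sign of the Srsf3 ratio changed to 1.28 on SCTransform-corrected counts.

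Srsf5 and Srsf7, SR proteins of which Srsf7 also serves as an adaptor in mRNA export, were close to equal in the sums. Srsf5 stood at 319.8 summed CPM in WT, 423 in YFP1 and 284 in YFP2, a log2 ratio of 0.12 that was 0.40 in YFP1 and -0.17 in YFP2. Its well medians were 4.13, 8.30 and 7.80 CPM, with highest wells of 1235, 1755 and 1702 CPM. Srsf7 stood at 164, 103 and 214 summed CPM, a log2 ratio of -0.01 that was -0.67 in YFP1 and 0.38 in YFP2. Its well medians were 1.90, 0.763 and 3.20 CPM and its highest wells 799, 594 and 1556 CPM. For both genes the summed levels of the Renin-null libraries lay on opposite sides of WT. On SCTransform-corrected counts the ratios were 1.37 for Srsf5 and 0.98 for Srsf7, and with TMM -0.59 and -0.71.

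Srsf11, an SR-related protein, was higher in Renin-null cells by 0.75 on the log2 scale (counting interval 0.73 to 0.77), with 1.17 for YFP1 and 0.27 for YFP2. It stood at 166 summed CPM in WT, 374 in YFP1 and 200.2 in YFP2, but 1 well held 49.2% of the YFP1 counts. Its well medians were 6.24 CPM in WT, 15.8 in YFP1 and 7.59 in YFP2, with highest wells of 3699, 7103 and 4764 CPM. In well-covered wells the median was higher in WT, 74.5 CPM against 13.4, although the ratio of the sums was 0.83. Srsf1, a splicing factor known for promoting exon inclusion, was too sparse to compare. It had a count in 15 of 51 WT wells and 19 of 96 Renin-null wells, its median was 0 CPM in all 3 libraries, and 1 well held 87.6% of its counts in WT and another 99.1% in YFP1. Its log2 ratio of 0.50 became -2.23 as the mean over wells of CPM and 2.81 without the highest well of each genotype.

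Srsf6 stood apart from the other genes in how it was spread over wells. It ran from 0 to 3130 CPM in WT wells (median 38.4), from 0 to 576 in YFP1 (median 0) and from 0 to 137 in YFP2 (median 0). A count was found in 50 of 51 WT wells (98.0%, 89.6% to 99.95%) and in 34 of 96 Renin-null wells (35.4%, 25.9% to 45.8%). At least 10 CPM was reached in 38 of 51 WT wells (74.5%, 60.4% to 85.7%) and 12 of 96 Renin-null wells (12.5%, 6.63% to 20.8%), and the ranges overlapped. Among well-covered wells these were 6 of 15 and 10 of 57. The summed level was 66.2 CPM in WT, 32.9 in YFP1 and 9.44 in YFP2, a log2 ratio of -1.72 (counting interval -1.76 to -1.68), with -1.01 for YFP1 and -2.81 for YFP2. It was below 0 in all 14 alternatives, from -3.94 to -1.01.

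The counts of Srsf6 in WT wells differed little between shallower and deeper wells at the median. In the 25 shallower WT wells (26401 to 1437586 counts) the median was 41 Srsf6 counts, and in the 26 deeper ones (1525972 to 17124854 counts) it was 47. The sums were 1626 and 11472 counts, as a few deep wells held many. Over the same sets of wells the median of Srsf2 went from 6 to 1468 counts and that of Bclaf1 from 1 to 11.5. Across WT wells, the level of Srsf6 had a rho of -0.33 with counts per well, where Bclaf1 had 0.39 and Srsf2 0.42, and a rho of 0.55 with the summed endothelial markers. Of these markers Pecam1 had a count in 50 of 51 WT wells and in 86 of 96 Renin-null wells. Emcn, Flt1 and Kdr had a count in 10, 11 and 4 WT wells. In the 15 well-covered WT wells the median of Srsf6 was lower than in all WT wells, at 24 counts and 2.77 CPM against 42 counts and 38.4 CPM. In the 57 well-covered Renin-null wells it was 0 CPM, and at least 100 CPM was reached in 4 of 15 and 6 of 57 of these wells (26.7%, 7.79% to 55.1%, and 10.5%, 3.96% to 21.5%). Prpf3, a protein of the U4/U6 snRNP, also had a count in 50 of 51 WT wells and in only 23 of 96 Renin-null wells, with a log2 ratio of -1.74. The part of depth, of shared indexes and of other cells in the Srsf6 counts was not tested.

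**Figure D3:**
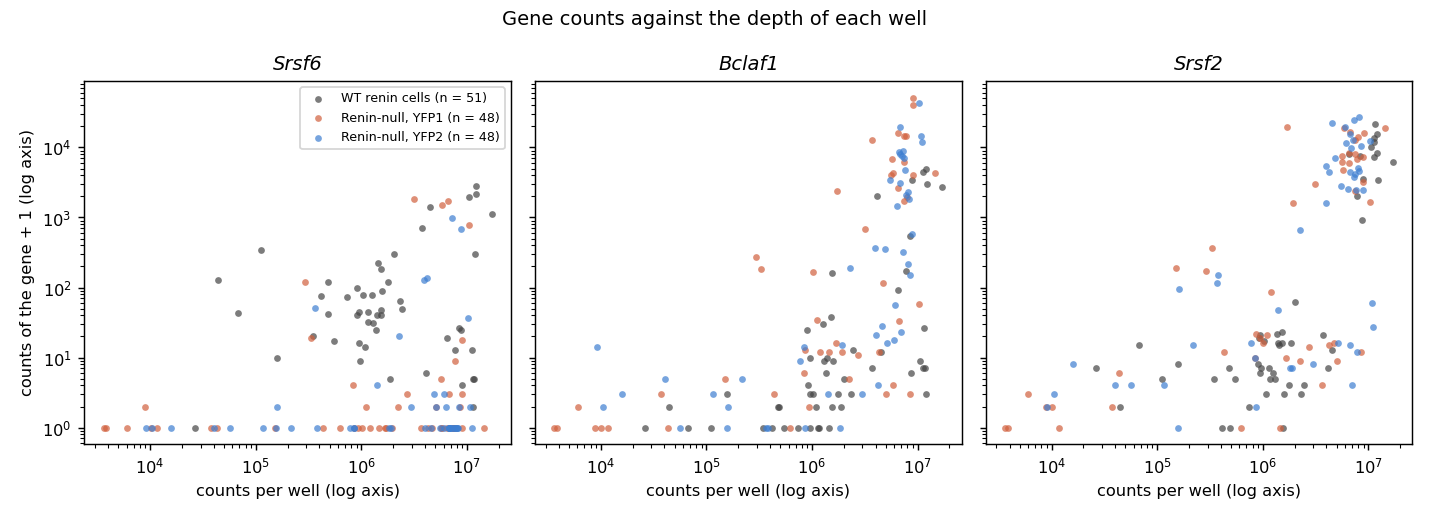
Counts of Srsf6, Bclaf1 and Srsf2 plus 1 (y, log axis) against the counts of each well (x, log axis), WT in grey (n = 51), YFP1 in orange and YFP2 in blue (n = 48 each). Bclaf1 and Srsf2 are high mainly in deep wells, while Srsf6 in WT has medians of 41 and 47 counts in shallower and deeper wells and lies at 0 in most Renin-null wells.

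Whether the genes varied with Bclaf1 between cells of 1 library was described by Spearman's rho of log2(CPM + 1) across wells. The wells of a library differ in depth and mitochondrial share, which all genes of a well have in common. Bclaf1 itself had a rho with the number of genes per well of 0.53 in WT, 0.58 in YFP1 and 0.40 in YFP2, and with the mitochondrial share of -0.30, -0.47 and -0.45. The rho of a gene is therefore set beside that of 1736 genes detected in 50% or more of the wells of each library, a limit that Srsf1 and Srsf6 did not meet. The median rho of the 9 other genes with Bclaf1 was 0.25 in WT, 0.24 in YFP1 and 0.21 in YFP2, against 0.24, 0.31 and 0.19 for the 1736 genes. A rho of at least 0.3 was found for 2 of 9 genes in WT, 4 of 9 in YFP1 and 2 of 9 in YFP2, against 33.9%, 53.3% and 26.1% of the 1736 genes. Against the background, the median of the 9 genes lay above it in WT and YFP2 and below it in YFP1. The side depended on the wells used: in wells thinned to 62000 counts the medians were 0.29 in WT, 0.37 in YFP1 and 0.14 in YFP2, against 0.22, 0.22 and 0.17 for the background, and in well-covered wells 0.21, 0.12 and 0.12 against 0.18, 0.11 and 0.08.

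Srsf7 came closest to Bclaf1, with a rho of 0.25 in WT (51 wells), 0.70 in YFP1 (48 wells) and 0.42 in YFP2 (48 wells). By the mean of these 3 values it was number 22 among the genes ranked. In well-covered wells its rho was 0.21 in WT (15 wells), 0.66 in YFP1 (28 wells) and 0.36 in YFP2 (29 wells), at the 53.5th, 99.9th and 93.1st percentiles of the background genes. In thinned wells of YFP2 it was 0.28 (71.3rd percentile), so that a rho far above the background in all of these choices of wells was found for YFP1. Srsf7 reached 10 CPM in 12 of 26 YFP1 wells with at least 10 CPM of Bclaf1 (46.2%, 26.6% to 66.6%) and in 1 of the other 22 (4.55%, 0.115% to 22.8%). In YFP2 these shares were 18 of 31 (58.1%, 39.1% to 75.5%) and 4 of 17 (23.5%, 6.81% to 49.9%). A split of this kind was not particular to Srsf7, as Srsf2 reached 10 CPM in 51 of the 57 Renin-null wells with at least 10 CPM of Bclaf1 and in 21 of the other 39. Both Bclaf1 and Srsf7 had a rho of 0.52 with counts per well in YFP1, and the part of depth in these shares was not tested.

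Srsf2 and Srsf3 had a rho with Bclaf1 of 0.64 and 0.51 in YFP1, but of 0.22 and 0.26 in WT and 0.26 and 0.30 in YFP2. With each other they had a rho of 0.69 in WT and 0.46 in YFP2, above that with Bclaf1, and of 0.42 in YFP1, below it. This was the pair of the 10 genes with the highest rho in its lowest library. In well-covered wells the rho of Srsf2 with Bclaf1 was 0.13 in WT, 0.33 in YFP1 and 0.01 in YFP2, and that of Srsf3 0.52, 0.12 and 0.22. Srsf5 varied with Bclaf1 most in WT, at 0.48, against 0.32 in YFP1 and 0.21 in YFP2. Son had 0.27, 0.23 and 0.23, and the paralog Thrap3 0.33, 0.23 and 0.15. In well-covered wells Son had 0.30 in WT, -0.05 in YFP1 and -0.01 in YFP2, and Thrap3 0.36, -0.01 and 0.13. Srsf1 had 0.03, 0.24 and 0.20 over all wells, on few wells with a count. Srsf11 had 0.17, 0.08 and -0.13 and Srsf6 -0.12, 0.04 and -0.17 over all wells, with percentiles among the 1736 genes from 3.40 to 36.5. In well-covered wells of WT, YFP1 and YFP2, Srsf11 was at the 29.3rd, 82.7th and 41.2nd percentiles and Srsf6 at the 25.5th, 3.05th and 2.07th.

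**Figure D4:**
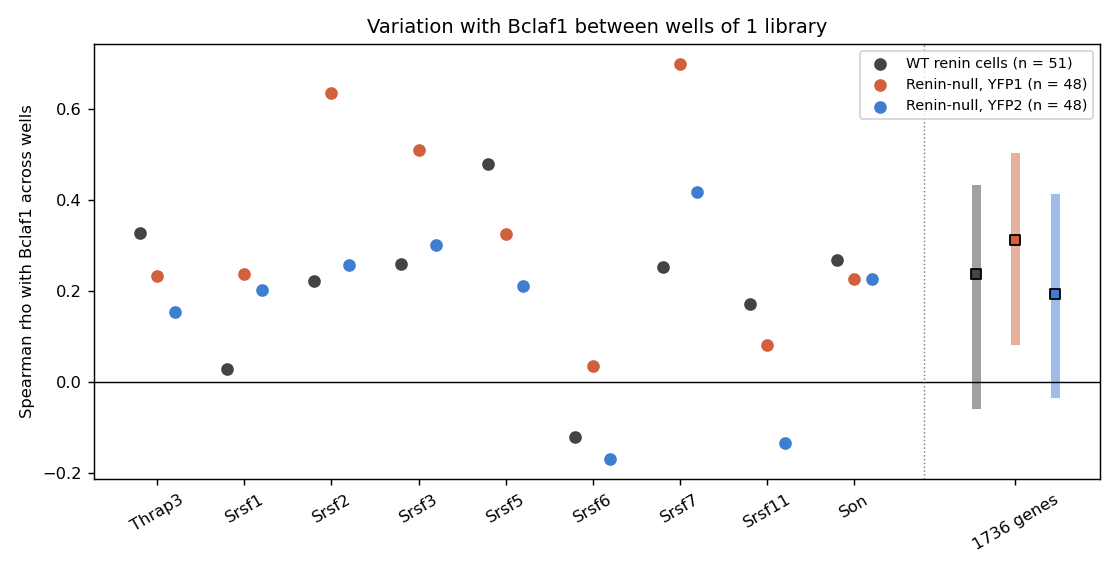
Spearman rho of each gene with Bclaf1 across the wells of WT (n = 51, grey), YFP1 (n = 48, orange) and YFP2 (n = 48, blue); at the right, the median (squares) and the 10th to 90th percentile (bars) of 1736 genes. Srsf7 (0.70), Srsf2 (0.64) and Srsf3 (0.51) lie above the bar in YFP1, and Srsf6 and Srsf11 lie below 0 in YFP2.

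The 8 genes most like Bclaf1 across wells, by the mean rho of the 3 libraries, were Iqgap1 (0.57), Btg2 (0.51), Ptges3 (0.51), Pafah1b1 (0.50), Lifr (0.50), Dynll1 (0.49), Rpl11 (0.48) and Afap1 (0.48). None of these is an SR gene, and Srsf7 followed at 0.46, Srsf2 at 0.37 and Srsf3 at 0.36. Iqgap1, a scaffold of the actin cytoskeleton, had 0.49 in WT, 0.53 in YFP1 and 0.68 in YFP2. Btg2, an early-response gene, also belongs to the list of the response to cell dissociation, whose summed level had a rho with Bclaf1 of 0.26, 0.49 and 0.44. The part of dissociation in the Bclaf1 levels was not tested.

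Other genes of the splicing machinery were taken from fixed lists, and no list had a median near the ratio of Bclaf1. Of the 4 other SR proteins (Srsf4, Srsf9, Srsf10 and Srsf12), none was 2-fold higher or lower, with a median log2 ratio of -0.25 that ran from -1.41 in YFP1 alone to 1.53 without the highest well of each gene. Srsf10, the one with most counts, stood at 525 summed CPM in WT, 231 in YFP1 and 399 in YFP2, a ratio of -0.70. Of 24 SR-related and speckle proteins, 6 were at least 2-fold higher and 6 at least 2-fold lower, with a median of -0.09 (-0.79 with TMM, 1.00 on SCTransform-corrected counts). The higher ones included Srek1 (1.56), which regulates SR proteins in splice site choice, and Rbm25 (1.27), a speckle protein, with 1.61 and 1.58 in YFP1 and 1.51 and 0.95 in YFP2. The lower ones included U2af2 (-2.74), the large subunit of the factor that binds the polypyrimidine tract, Pnn (-2.07), which sits at the exon junction complex, and Sfswap (-2.00). In WT, 1 well held 57.2% of the U2af2 counts, 61.9% of those of Pnn and 62.7% of those of Sfswap. Without the highest well of each genotype the ratios were -2.38 for U2af2, -1.19 for Pnn and -1.31 for Sfswap. U2af1, the small subunit that binds the 3′ splice site, had a ratio of 1.85, which was 2.70 in YFP1, 0.28 in YFP2 and 1.78 without the highest well of each genotype.

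Of the 9 kinases and import factors of SR proteins, 4 were at least 2-fold higher and 1 at least 2-fold lower, with a median of 0.85 (0.15 with TMM), between the median of 1.17 over all genes and that of 0.75 over the 7783 expressed genes. As the difference of mean log2(CPM + 1) the median was 0.78, above the 0.13 of all genes. Dyrk1a (1.97) and Srpk1 (1.77), both kinases of SR domains, were higher in YFP1 (2.47 and 2.13) and YFP2 (1.36 and 1.39). In WT, 1 well held 56.5% of the Dyrk1a counts and 78.2% of those of Srpk1, and without the highest well of each genotype the ratios were 2.80 and 3.65. Clk1, the kinase of the list with most counts, stood at 807 CPM in WT, 1147 in YFP1 and 684 in YFP2, a ratio of 0.15. Clk2 was lower at -2.14, with 69.2% of its WT counts in 1 well and 80.7% of its Renin-null counts in another. Without the highest well of each genotype it was at -2.87. Srpk2 had a ratio of -0.32, with -1.84 in YFP1 and 0.31 in YFP2.

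Of 17 hnRNP proteins, which often act against SR proteins, 7 were at least 2-fold higher and 1 at least 2-fold lower, with a median of 0.84 (0.13 with TMM). Ptbp1, a repressor of exons, was at 1.61 summed CPM in WT, 109 in YFP1 and 66.4 in YFP2, a ratio of 5.74, with a count in 4 of 51 WT wells and 49 of 96 Renin-null wells. Hnrnpul1 (3.54) and Pcbp1 (2.49) were higher in both libraries, at 3.51 and 2.67 in YFP1 and 3.57 and 2.31 in YFP2. Hnrnph1 was lower, at -1.10 (-0.32 in YFP1 and -2.42 in YFP2), and Hnrnpk and Hnrnpa3 had ratios of -0.65 and -0.86. Of 21 core proteins of the spliceosome, 7 were at least 2-fold higher and 3 at least 2-fold lower, with a median of 0.64 (-0.06 with TMM, 1.78 on SCTransform-corrected counts). The median of this list was 0.56 in YFP1 alone and -0.16 in YFP2 alone. Snrpa, the U1 snRNP protein A, had a ratio of 4.41 and Snrpd3, an Sm protein, one of 3.17, with 91.1% of the WT counts of Snrpd3 in 1 well. Prpf19 had the largest ratio of the list, 6.25, which came from YFP2 (7.12) and not from YFP1 (-0.10). Snrpb2 (-1.67), Sf3a1 (-1.12) and Prpf3 (-1.74) were lower. Without the highest well of each genotype, Snrpb2 was at -0.93, and Sf3a1, with 84.3% of its WT counts in 1 well, turned to 0.93. Of 8 factors of nonsense-mediated decay, 3 were at least 2-fold higher (Smg6 at 2.25, Upf3b at 1.60 and Smg5 at 1.02) and none 2-fold lower, with a median of 0.50 (-0.21 with TMM). Without the highest well of each genotype Smg6 was at 0.62 and Smg5 at 0.89, and 1 well held 76.7% of the Renin-null counts of Smg6. Against these counts stand 52.4% of all genes at least 2-fold higher and 18.5% at least 2-fold lower. Beside the list medians, that of all genes was 1.17, 0.47 with TMM and 1.86 on SCTransform-corrected counts.

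The 17 genes of the response to cell dissociation summed to 15282 CPM in WT, 16700 in YFP1 and 20037 in YFP2, with a median log2 ratio of -0.05 (-0.75 with TMM, 1.33 on SCTransform-corrected counts). Over all genes these medians were 1.17, 0.47 with TMM and 1.86 on SCTransform-corrected counts. Of the 17 genes, Btg1 (1.30) and Hspa1a (1.25, with -0.39 in YFP1 and 1.90 in YFP2) were at least 2-fold higher. Hsp90aa1 (-1.38) and Ier2 (-1.25) were at least 2-fold lower. Of all genes, 52.4% were at least 2-fold higher and 18.5% at least 2-fold lower. The nuclear RNAs Malat1, Neat1 and Meg3, which could have shown differences in nuclear RNA content, were not among the 35438 genes of the count tables.

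**Figure D5:**
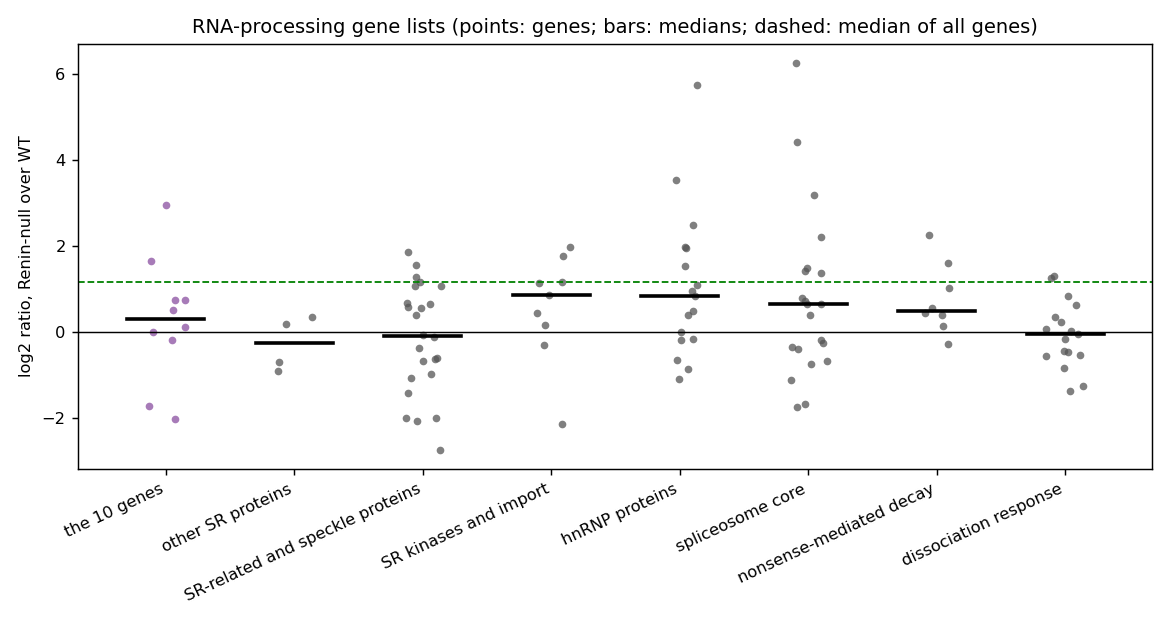
Log2 ratio, Renin-null over WT, of the 10 genes (purple) and of the genes of 7 fixed lists (grey points), with black bars for medians and a dashed line at the median of all genes (1.17). The list medians run from -0.25 to 0.85, below that line, although those of the kinases (0.85) and hnRNP proteins (0.84) lie above the 0.75 of expressed genes and, as the difference of mean log2(CPM + 1), all 7 medians (0.14 to 1.14) lie above the 0.13 of all genes. Single genes of each larger list lie on both sides of 0.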

How the data were processed

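The authors trimmed reads with Trimmomatic 0.39, checked them with FastQC 0.11.5 and quantified them with Salmon 0.11.2 on GRCm38/ENSEMBL (versions from the submitters' processing notes). They summed transcripts to genes with tximport (lengthScaledTPM). The deposited files hold the authors' expected counts per gene and well, with no normalization for depth. Whether both tables came from 1 tximport run is not given in the sources used here, and a correction for gene length made apart could shift single genes.

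Expected counts were rounded, summed over the wells of a group and scaled to CPM. Where a group had no count, 3 counts stood in for it. Ratios carry the exact conditional interval and shares of wells the exact Clopper-Pearson interval, at 95%, for counting error only, since PCR copies are not independent molecules. All wells were kept and no doublet caller was run. The code was tested on simulated data. Alternatives were the mean over wells, the difference of mean log2(CPM + 1), TMM, CPM without mitochondrial genes and without Ren1, SCTransform, wells thinned to 62000 counts (49 WT and 83 Renin-null wells deep enough), well-covered wells, near-identical wells once, the highest well left out and each library alone. Wells of under 200000 counts or over 9000 genes, and wells rich in markers of other cell types, were left out in 2 alternatives chosen after seeing the data.

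The 10 genes, lists and tests were chosen with earlier results of these data known. The levels of 1 marker list are not reported here. Genes were named from each list if their ratio was among the 3 highest or 3 lowest, as were the 8 genes most like Bclaf1. Promoters were matched by symbol for all 10 genes, with 2 windows for Srsf11. The software was R 4.3.3 (edgeR 4.0.16 for TMM only, sctransform 0.4.2, Seurat 5.3.0) and Python 3.11.15 (scipy 1.17.1, pandas 2.3.3, numpy 2.4.6, matplotlib 3.10.9).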

Additional observations from a re-analysis of the deposited data

How the results depend on the processing

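No paired analysis was possible because the labels give no mouse or capture per well. The median log2 ratio of the 10 genes (0.31), the number at least 2-fold higher (2) and the Bclaf1 ratio (2.96) moved as follows. The cause was not tested. In parentheses are the median over all genes and the percent of all genes at least 2-fold higher. In the main setting these were 1.17 and 52.4%. As the mean over wells of CPM they were 0.90 (1.55), 4 (59.1%) and 3.40. As the difference of mean log2(CPM + 1) they were 0.67 (0.13), 3 (9.03%) and 2.83. With TMM factors they were -0.39 (0.47), 1 (43.1%) and 2.26. Without mitochondrial genes they were 0.15 (1.01), 2 (50.1%) and 2.80, and without these and Ren1 -0.035 (0.83), 2 (47.4%) and 2.61. On SCTransform-corrected counts they were 1.32 (1.86), 6 (64.1%) and 3.64, and in thinned wells 0.94 (1.36), 4 (56.9%) and 3.48. In well-covered wells they were 0.17 (1.11), 3 (51.6%) and 2.89. With near-identical wells counted once they were -0.035 (1.18), 2 (52.7%) and 2.94. Without the highest well of each gene they were 0.49 (1.84), 3 (62.7%) and 3.03. In YFP1 alone they were 0.15 (0.71), 3 (45.7%) and 3.25, and in YFP2 alone 0.33 (0.98), 3 (49.8%) and 2.66. Without the shallowest and most gene-rich wells they were 0.28 (1.13), 2 (52%) and 3.15. Without wells rich in other markers they were 0.49 (0.84), 3 (47.6%) and 2.74. Counted at 2-fold above the median of all genes, 1 gene was higher. The median rho with Bclaf1 in WT wells (0.25, against 0.24 for the background genes) was 0.29 in thinned wells (0.22), 0.21 in well-covered wells (0.18), 0.20 without mitochondrial genes (0.19) and 0.31 as Pearson's r (0.27), with the background in parentheses. In Renin-null wells (0.24, background 0.26) it was 0.21 in thinned wells (0.19), 0.16 in well-covered wells (0.09), 0.22 without mitochondrial genes (0.21), 0.28 as Pearson's r (0.23) and 0.21 in YFP2 alone (0.19). It lay above the background in these alternatives and below it over all wells. It also lay below the background with near-identical wells counted once (0.25 against 0.26) and in YFP1 alone (0.24 against 0.31). Bclaf1 kept its direction under every alternative run. In the 25 shallower WT wells the medians of Bclaf1 and Thrap3 were 1 count, so that their levels there rest on few counts.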
